A study of Mus musculus with 4 samples.

Results

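The genes that write and erase methyl groups on histone lysines were measured as messenger RNA in LSK cells, bone marrow cells that lack lineage markers and carry Sca1 and Kit, among which the blood stem cells and the first progenitors are found. The cells came from mice aged 13 to 15 months. There were 2 wild-type (WT) libraries and 2 p53R248W/+ libraries from mice with 1 wild-type and 1 mutant Trp53 allele, the mutant coding for a p53 protein with an altered DNA-binding domain. Neither group had any treatment or other allele named in the labels. Members were chosen by gene symbol alone, as the Kdm, Kmt2, Kmt5, Setd, Nsd1, Whsc1, Ehmt, Suv39h, Suv420h, Dot1l and Ash1l genes of the count table. The Y-linked gene Kdm5d was left out. That gave 44 of the 24421 genes in the table, 24 histone methyltransferase genes, 17 demethylase genes and 3 further SET-domain genes. All 44 had enough reads to be tested. The table uses older symbols for 5 of them: Whsc1 and Whsc1l1 are also known as Nsd2 and Nsd3, and Setd8, Suv420h1 and Suv420h2 as Kmt5a, Kmt5b and Kmt5c.

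Most methyltransferases of histone lysines act through a SET domain, and Dot1l is the exception with a different fold. They take the methyl group from S-adenosylmethionine. Demethylases are of 2 kinds, the flavin-dependent amine oxidases Kdm1a and Kdm1b and the JmjC enzymes, which use iron and 2-oxoglutarate. The site matters: H3K4 methylation marks promoters and enhancers, H3K36 methylation marks transcribed gene bodies, H3K9 and H3K27 methylation mark silent chromatin, and H4K20 methylation is tied to the cell cycle and chromosome compaction. In blood, Kmt2a is known as a regulator of stem cell genes and is rearranged in human leukemias, and several other members are mutated in blood cancers.

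Between 12111126 and 14820759 reads were counted per library, and the methyltransferase and demethylase genes took 1.07% to 1.20% of them. Whether the replicates are different animals is not stated in the labels, and the p-values given here therefore cover only how far these libraries lie apart, a spread that may be technical. The sorted cells carried the genes of their gate, with Kit at 911 to 1182 CPM and Ly6a, which encodes Sca1, at 40.2 to 82.9 CPM (CPM is the count relative to the library total after TMM scaling). Trp53 lay between 245 and 362 CPM with overlapping genotypes, which does not check the labels because a point mutation leaves the transcript in place. Other blood cell markers were mostly low. The summed level of 8 B lineage markers was 8.16 and 13.2 CPM for WT, compared with 44.7 and 23.1 CPM for p53R248W/+, with 1 of the 8 at 0 in all libraries. That of the granulocyte and monocyte list was 1481 and 410 CPM for WT, compared with 784 and 655 CPM for p53R248W/+, most of it Mpo. Of 9 erythroid markers 4 were at 0 in all libraries, as were 2 of 9 T and NK cell markers. The erythroid sums were 174 and 132 CPM for WT, compared with 130 and 221 CPM for p53R248W/+, most of it Tfrc. Those of T and NK cells were 69.6 and 83.4 CPM beside 82.6 and 67.9 CPM, most of it Klrb1c. The 6 mast cell and basophil markers summed to 34.1 and 26.1 CPM beside 30.2 and 57.6 CPM. The erythroid, T and NK, and mast cell sums overlapped between the genotypes. In sums of bulk RNA, fewer cells of a type and less RNA per cell cannot be told apart.

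In p53R248W/+ cells the values of these genes lay slightly above WT more often than below. Together they amounted to 10820 and 11220 CPM in the WT libraries and to 11864 and 11982 CPM in the p53R248W/+ libraries, so the sums did not overlap. Of the 44 genes, 32 had a positive log2 fold change and 12 a negative one (p53R248W/+ over WT), where 50.0% of the 13296 genes tested were positive. The median was 0.12, against -8.81e-05 over all genes tested. In 19 genes both p53R248W/+ libraries were above both WT libraries, and in 4 genes both were below. Over all genes tested, 33.6% lay apart, 16.9% in the upward and 16.6% in the downward direction. Among genes that mark LSK cells 8 of 11 were positive, with a median of 0.25, and their summed level was 3507 and 3783 CPM for WT, compared with 4527 and 4236 CPM for p53R248W/+. Of 8 stroma and endothelium markers, 2 were at 0 in all libraries and 3 had enough reads to be tested. The 8 summed to 87.2 and 81.1 CPM for WT, compared with 166 and 129 CPM for p53R248W/+, most of it Pecam1. Pecam1 had WT values of 70.4 and 50.7 CPM beside mutant values of 105 and 100 CPM (adjusted p = 0.824, edgeR quasi-likelihood test). The 6 megakaryocyte markers summed to 103 and 117 CPM for WT, compared with 67.7 and 47.7 CPM for p53R248W/+, and none was at 0 in all libraries. Itga2b was the largest of them in every library, at 84.5 and 65.1 CPM for WT and 33.7 and 27.8 CPM for p53R248W/+. The sum without Itga2b was not computed. Of the 6 markers, 4 were negative and 2 positive. Itga2b and Pf4 had an unadjusted p under 0.05 (both with an adjusted p of 0.824 in edgeR's quasi-likelihood test). The part of these cell markers in the members' balance was not tested. None of the 44 passed the threshold of an adjusted p of 0.05 in edgeR's quasi-likelihood test, in which 0% of all genes passed, and the smallest adjusted p among them was 0.824. Kdm5b alone had an unadjusted p under 0.05, in the upward direction, in which 3.01% of all genes did, against 2.86% in the downward and 5.87% in either direction. DESeq2 called 6 genes of the whole table and limma-voom 0, none of them among the 44. At an unadjusted p under 0.05 were 1 of the 44 with DESeq2, against 5.92% of all genes, and 3 of the 44 with limma-voom, against 4.65%, which is near those shares.

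The balance of signs differed between fits that left out 1 library. Positive values were found for 29 of 44 genes without WT replicate 1 and for 28 without p53R248W/+ replicate 2, and for 32 without each of the others. In those fits the share of positive values over all genes tested ran from 46.9% to 53.8%. The sign of 27 of the 44 genes held in all 4 such fits, 20 of them positive and 7 negative. Such fits share most libraries with the full fit, and the share of all genes that kept their sign was not computed. The biological coefficient of variation was 46.0% as a common value over all genes, which does not describe the members alone. With 2 libraries per genotype, the intervals were wide for every gene given here.

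**Figure D1:**
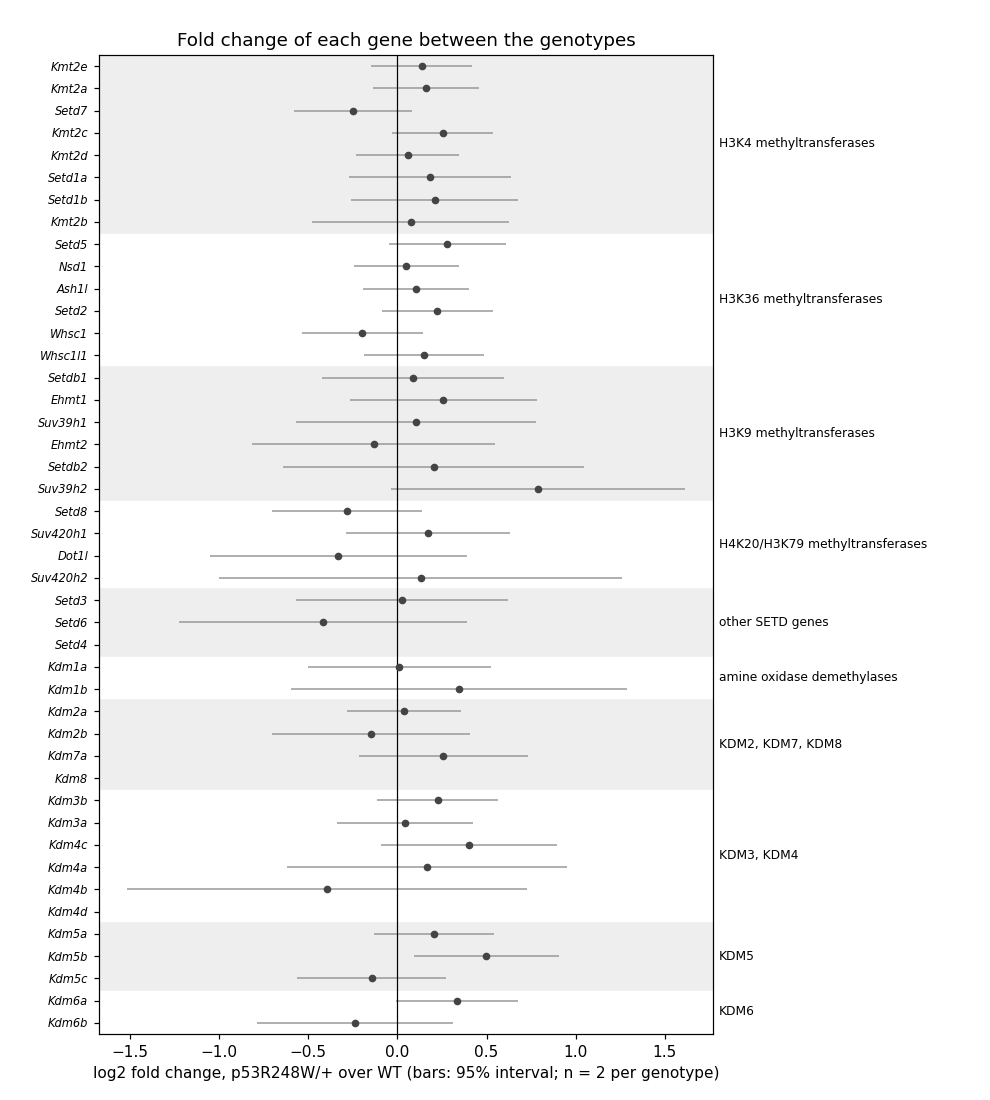
The log2 fold change of each gene (x axis, p53R248W/+ over WT) is plotted by class, with bars for the 95% interval. Points lie mostly just right of 0 and all bars but that of Kdm5b reach it. Kdm4d, Kdm8 and Setd4 have too few reads and are not drawn.

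These genes are long, and fold change moved with exon length in the whole table. Their median exon length was 5812.5 bases, against 2883.5 bases for all genes tested, and 29 of the 44 were in the longest of 5 equal length groups, from 4846 bases upward. In that group the median log2 fold change of all 2659 genes was 0.062 and 57.6% were positive. The 29 members there had a median of 0.16. In the next group, from 3407 to 4846 bases, the median of all genes was 0.014 and that of the 5 members was 0.090. From 2454 to 3407 bases the median of all genes was -0.020 and that of the 6 members was 0.019. From 1591 to 2454 bases the median of all genes was -0.059 and that of the 4 members was -0.025. In the shortest group the median was -0.051, with no member in it. Spearman's rho between exon length and log2 fold change was 0.076 over the 13296 genes and 0.15 over the 44, which share their libraries. The part of exon length in the members' balance was not tested.

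**Figure D2:**
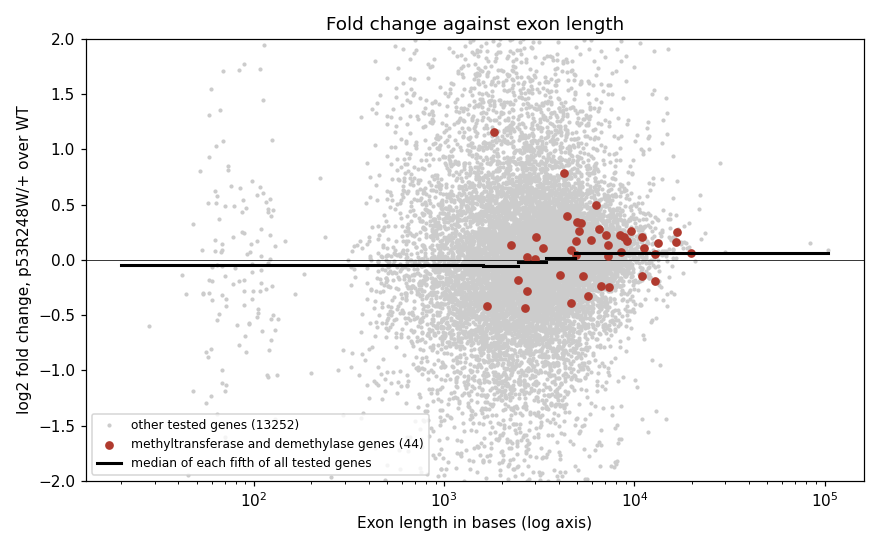
Log2 fold change (y axis) is plotted against exon length in bases (log x axis) for all genes tested (grey) and the 44 methyltransferase and demethylase genes (red), with 505 genes beyond the y limits not drawn. Black lines give the median of each of 5 equal groups of genes by length, from -0.051 in the shortest to 0.062 in the longest.

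Promoter sequence is shown for the 3 members with the smallest p among those with a reference window (Kdm5b, Kdm6a and Suv39h2). Suv39h1 is added as the paralog of Suv39h2, and Setd7 and Setd8 as genes that lay lower in both p53R248W/+ libraries. Kdm5c also lay lower in both and has a window, which is not printed. Each line is the 200 bases upstream of the RefSeq start site (GRCm38.p6, the assembly of mm10), 5′ to 3′ on the strand of the gene. Capitals mark matches to GGGCGG (GC box), ATTGG (the inverted CCAAT box), CACGTG (E box), TGACGTCA (cyclic AMP response element) and the single p53 decamer (the repeat unit of a p53 response element), on either strand. The windows are chr1:134559978-134560177 (plus) for Kdm5b, chrX:18162375-18162574 (plus) for Kdm6a, chr2:3474987-3475186 (minus) for Suv39h2, chrX:8074761-8074960 (minus) for Suv39h1, chr3:51560824-51561023 (minus) for Setd7 and chr5:124439730-124439929 (plus) for Setd8.
Kdm5b: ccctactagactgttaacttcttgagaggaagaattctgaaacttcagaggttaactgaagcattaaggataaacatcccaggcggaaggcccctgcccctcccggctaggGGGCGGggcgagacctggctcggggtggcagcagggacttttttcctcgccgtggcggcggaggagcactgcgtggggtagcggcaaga
Kdm6a: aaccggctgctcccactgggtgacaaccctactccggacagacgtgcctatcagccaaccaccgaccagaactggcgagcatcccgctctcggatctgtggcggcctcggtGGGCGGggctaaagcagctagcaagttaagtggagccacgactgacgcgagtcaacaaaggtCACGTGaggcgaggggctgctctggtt
Suv39h2: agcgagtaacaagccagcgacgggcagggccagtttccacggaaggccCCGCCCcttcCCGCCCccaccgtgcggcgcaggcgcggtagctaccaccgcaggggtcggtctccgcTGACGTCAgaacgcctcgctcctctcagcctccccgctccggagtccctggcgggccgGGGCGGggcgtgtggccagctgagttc
Suv39h1: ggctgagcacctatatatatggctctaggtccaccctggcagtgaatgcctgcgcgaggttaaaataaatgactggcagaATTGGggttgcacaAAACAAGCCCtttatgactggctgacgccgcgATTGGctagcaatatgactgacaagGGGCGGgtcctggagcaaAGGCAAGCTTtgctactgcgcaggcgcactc
Setd7: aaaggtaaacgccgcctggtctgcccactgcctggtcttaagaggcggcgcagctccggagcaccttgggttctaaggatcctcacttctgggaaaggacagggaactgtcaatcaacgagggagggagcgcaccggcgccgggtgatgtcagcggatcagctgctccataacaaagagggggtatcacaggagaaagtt
Setd8: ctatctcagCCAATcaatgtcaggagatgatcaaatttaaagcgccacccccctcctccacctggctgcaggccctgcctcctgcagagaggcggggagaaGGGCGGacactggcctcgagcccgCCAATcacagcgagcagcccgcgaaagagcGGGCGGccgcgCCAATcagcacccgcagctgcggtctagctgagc

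In Kdm5b the capitals are a single GC box from -89 to -84 relative to the start site. Kdm6a has a GC box at the same distance and an E box from -27 to -22. Suv39h2 has 3 GC boxes and a cyclic AMP response element, while Suv39h1 has 2 inverted CCAAT boxes, a GC box and 2 p53 decamers that begin at -106 and -31. Setd7 held none of the searched letters, and Setd8 held 3 CCAAT boxes and 2 GC boxes. The whole 300-base windows run from 250 bases before to 50 after the start. In these, GGGCGG was found in 22 of 31 members, or 71.0%, against 35.6% of 27025 genes with 1 window each. The member windows were those nearest the 5′ end of the gene in the count table. For all genes it was the window with the lowest coordinate, and untested genes were included, so the sets are not matched. ATTGG was found in 41.9% of members and 37.8% of all, and CCGGAAG (ETS) in 19.4% and 9.08%. TATAAA was found in 0 of the 31 members and in 14.1% of all promoters, and the p53 decamer in 1 member, Suv39h1, and 8.34% of all. The NRF1 motif, TTTGGCGC and TTTCGCGC (both E2F) were in 0 members and in 0.962%, 0.533% and 0.329% of all. The median number of CG dinucleotides was 27 in members and 7 in all. RefSeq windows were matched for 32 members, and that of Setd5 was left out because it lies 27296 bases from the 5′ end of the gene in the count table. Kdm2a, Kdm3b, Kdm4b, Kdm5a, Kdm6b, Nsd1, Ash1l, Whsc1, Whsc1l1, Kmt2e, Setd1b and Kmt2b were not matched.

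Levels are compared between genes as CPM per kilobase of exon, averaged over the 4 libraries. The median member stood at 24.1 CPM per kilobase. Kmt2e was highest at 103, followed by Kmt2a at 83.0, Setd8 at 72.3, Setd5 at 71.4 and Nsd1 at 65.3. Those 5 were above 94.0% to 96.8% of the genes tested. At the low end were Setd4 at 1.21, Kdm8 at 1.11 and Kdm4d at 0.252. Replicates were close for most members: the median absolute log2 difference between the replicates was 0.15 in WT and 0.20 in p53R248W/+, against 0.43 and 0.42 over all genes tested. That comparison was not matched for level, as the median was 131 CPM for members and 25.7 CPM for all genes tested.

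**Figure D3:**
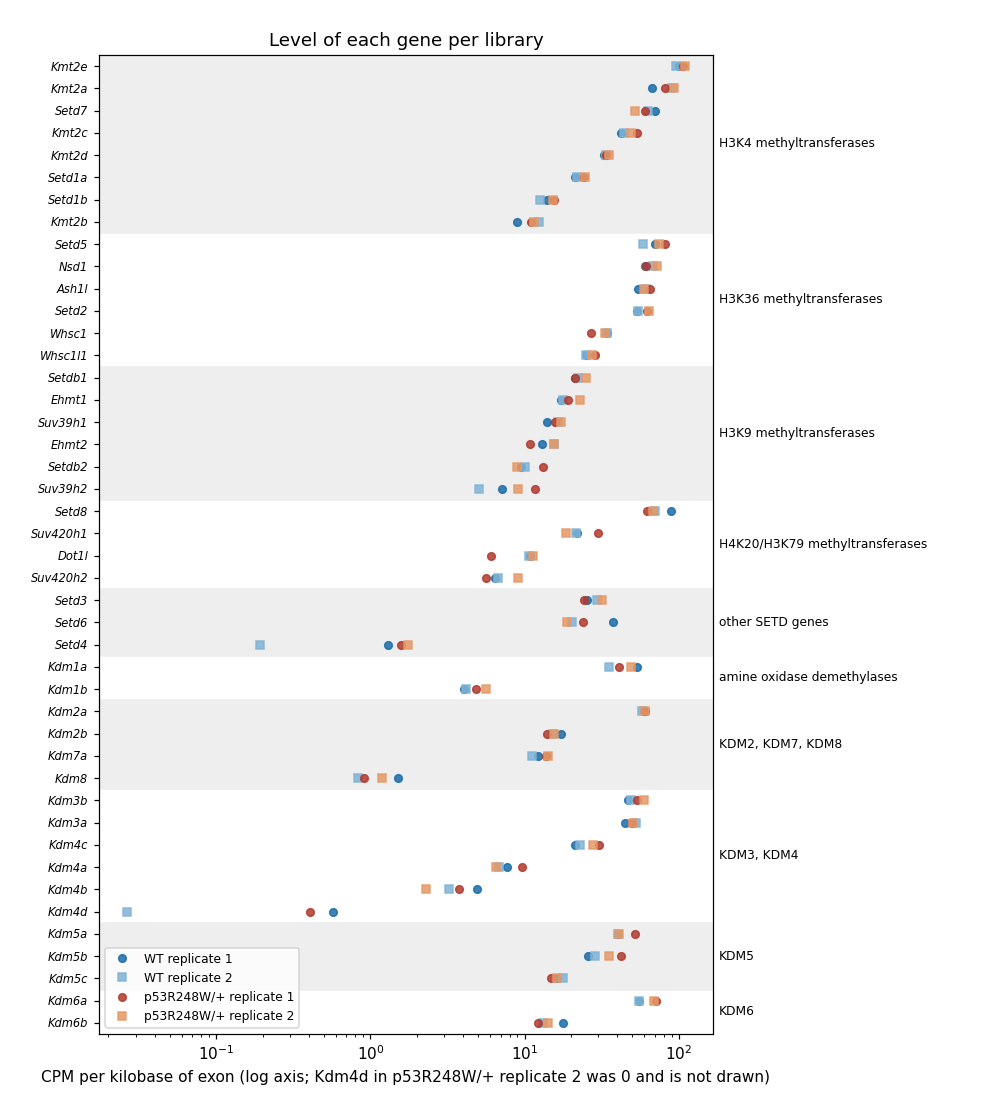
The level of each gene per library is plotted in CPM per kilobase of exon (log x axis), grouped by class. Kmt2e, Kmt2a and Setd8 lie highest, at 103, 83.0 and 72.3 on average, and Kdm4d, Kdm8 and Setd4 lie near 1 or below. In most rows the 4 points nearly coincide.

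Genes of the H3K4 methyltransferase class, Kmt2e included, had summed levels of 357 and 374 CPM per kilobase in WT and 388 and 391 in p53R248W/+. Of the 8 genes, 7 had positive fold changes, against 50.0% of all genes tested, and 5 lay above WT in both p53R248W/+ libraries, against 16.9%. Kmt2c, which encodes a methyltransferase of enhancers (chromosome 5, 25271794 to 25498783), had WT values of 711 and 745 CPM beside mutant values of 906 and 830 CPM. Both mutant libraries were above both WT libraries, at a log2 fold change of 0.25 ± 0.13 (SE, from 2 libraries each; the adjusted p was 0.825 in edgeR's quasi-likelihood test). Its partner paralog Kmt2d was nearly flat, with WT values of 654 and 665 CPM beside mutant values of 673 and 701 CPM, a difference of 0.058 ± 0.14 (SE) on the log2 scale.

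Kmt2a, which encodes the MLL protein that maintains Hox gene expression (chromosome 9, 44803355 to 44881274), stood at 1099 and 1478 CPM for WT, compared with 1349 and 1532 CPM for p53R248W/+. WT replicate 1 was the low library and the genotypes overlapped. The log2 fold change was 0.16 ± 0.14 (SE), but -0.036 without WT replicate 1 and 0.40 without WT replicate 2. Kmt2b, the closest paralog of Kmt2a, was lowest in the same library, at 75.6 CPM against 92.9 to 106 CPM in the other 3. Kmt2e, whose SET domain is thought to be inactive, measured 731 and 695 CPM in the WT libraries versus 772 and 796 CPM in the mutant libraries, and 874 of its 7258 exon bases are shared with Srpk2 on the opposite strand. Reads in the shared part cannot be assigned with certainty, because no source used here gives the strand setting of the counting.

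Setd1a and Setd1b encode the main H3K4 trimethylases of promoters. Setd1a had WT values of 127 and 129 CPM beside mutant values of 144 and 146 CPM, and Setd1b had 125 and 112 CPM beside 138 and 135 CPM. Both lay above WT in each mutant library, with log2 fold changes of 0.18 ± 0.22 and 0.21 ± 0.22 (SE). Setd7, a monomethylase that also acts on many proteins other than histones (chromosome 3, 51515318 to 51560823), was the member of this class with values in the other direction. It stood at 517 and 467 CPM for WT, compared with 444 and 382 CPM for p53R248W/+, or -0.25 ± 0.16 (SE; adjusted p = 0.835, edgeR quasi-likelihood test), and its 95% interval ran from -0.58 to 0.08. Its promoter was the only printed one with none of the searched motifs. The windows of Setd1a and Kdm4c, which are not printed, also held none, and both genes lay higher in both mutant libraries. The part of promoter motifs in these values was not tested.

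H3K36 methyltransferase genes summed to 297 and 303 CPM per kilobase in WT and 325 and 332 in p53R248W/+. Setd2, the trimethylase that travels with elongating polymerase, measured 446 and 457 CPM in the WT libraries versus 517 and 539 CPM in the mutant libraries, and the mutant libraries were both higher (0.22 ± 0.15, SE). Setd5, a SET-domain gene related to this class whose own activity is disputed, measured 453 and 382 CPM in the WT libraries versus 528 and 485 CPM in the mutant libraries, a log2 fold change of 0.28 ± 0.16 (SE; adjusted p = 0.825, edgeR quasi-likelihood test). The dimethylase gene Nsd1 had 767 and 873 CPM in WT beside 780 and 919 CPM in the mutant, and its replicates differed by more than its genotypes. Ash1l, another dimethylase, also overlapped, with WT values of 611 and 693 CPM beside mutant values of 731 and 673 CPM.

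The NSD paralogs Whsc1 and Whsc1l1 lay on opposite sides of WT. Whsc1, deleted in Wolf-Hirschhorn syndrome, had WT values of 439 and 438 CPM beside mutant values of 343 and 425 CPM. Whsc1l1 stood at 333 and 334 CPM for WT, compared with 380 and 361 CPM for p53R248W/+. In both genes the WT libraries were nearly equal and the mutant libraries fell outside them. The log2 fold changes were -0.20 ± 0.16 for Whsc1, or -0.048 without p53R248W/+ replicate 1, and 0.15 ± 0.16 for Whsc1l1 (SE).

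H3K9 methyltransferase genes were at lower levels, with sums of 82.2 and 86.8 CPM per kilobase in WT and 91.9 and 98.6 in p53R248W/+. Suv39h2, 1 of the enzymes that trimethylate pericentric heterochromatin (chromosome 2, 3455815 to 3474986), had the largest fold change of the members at or above 5 CPM. It was at 30.5 and 21.5 CPM in WT (26.0 ± 6.37, SD, n = 2) and at 50.2 and 39.1 CPM in p53R248W/+ (44.7 ± 7.91). Both mutant libraries were above both WT libraries, and the fitted value was 1.73-fold higher, a log2 fold change of 0.79 ± 0.39 (SE; adjusted p = 0.824 by edgeR's quasi-likelihood test), and its 95% interval ran from -0.033 to 1.61. It ranged from 0.56 to 1.06 with each library left out. Of its exon bases, 210 are shared with Dclre1c on the opposite strand. Its paralog Suv39h1 measured 46.4 and 54.5 CPM in the WT libraries versus 52.0 and 56.7 CPM in the mutant libraries, overlapping between the genotypes.

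The G9a-type genes Ehmt1 and Ehmt2 encode partners in 1 dimethylase complex. Ehmt1 had WT values of 88.2 and 90.4 CPM beside mutant values of 97.8 and 117 CPM, a log2 fold change of 0.26 ± 0.25 (SE). Ehmt2 overlapped between the genotypes, within 44.2 to 63.1 CPM. Setdb1, which silences retroelements together with Trim28, stood at 98.8 and 103 CPM for WT, compared with 98.8 and 117 CPM for p53R248W/+. It shares 44 exon bases with Cers2 on the opposite strand. Setdb2 was at 27.1 to 40.3 CPM with no separation.

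Among the H4K20 and H3K79 enzymes, no gene lay higher in both mutant libraries. Setd8, the only known H4K20 monomethylase, whose protein peaks in mitosis (chromosome 5, 124439930 to 124462307), measured 243 and 191 CPM in the WT libraries versus 172 and 186 CPM in the mutant libraries. Both mutant libraries were below WT, but WT replicate 2 lay closer to them than to WT replicate 1. The log2 fold change was -0.28 ± 0.20 (SE; adjusted p = 0.859, edgeR quasi-likelihood test), or -0.099 without WT replicate 1. The summed level of 18 proliferation genes was 2838 and 3590 CPM for WT, compared with 2083 and 3509 CPM for p53R248W/+, in another order than Setd8, with 17 of the 18 at negative fold changes. The part of these genes in the Setd8 value was not tested.

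Suv420h1 and Dot1l each had 1 mutant library apart from the other 3. Suv420h1, an H4K20 di- and trimethylase gene, was at 198 CPM in both WT libraries and at 274 and 170 CPM in p53R248W/+. Dot1l, the H3K79 methyltransferase needed by MLL-rearranged leukemias, had WT values of 61.8 and 60.5 CPM beside mutant values of 34.7 and 64.4 CPM. In both cases p53R248W/+ replicate 1 was the library that stood off, upward for Suv420h1 and downward for Dot1l. The log2 fold change of Suv420h1 went from 0.17 ± 0.22 (SE) to -0.22 without that library, and that of Dot1l from -0.33 ± 0.34 (SE) to 0.076.

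Of the 3 further SET-domain genes, Setd3 encodes an actin histidine methyltransferase and stood at 69.2 and 80.5 CPM for WT, compared with 66.4 and 87.0 CPM for p53R248W/+. Setd6, which methylates the NF-kB subunit RelA, measured 62.6 and 34.2 CPM in the WT libraries versus 40.2 and 31.6 CPM in the mutant libraries. WT replicate 1 was the high library for Setd6, whose log2 fold change of -0.42 ± 0.38 (SE) was 0.084 without it. Setd4 had 34 and 5 reads in WT and 43 and 39 in p53R248W/+, with WT replicate 2 the low library, and at so few reads its fold change is not given.

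H3K4 demethylase genes of the KDM5 family summed to 82.5 and 87.0 CPM per kilobase in WT and 109 and 92.0 in p53R248W/+. Kdm5b, an H3K4 demethylase that limits self-renewal genes in some stem cell systems (chromosome 1, 134560178 to 134632878), was the member with the smallest p. It was at 163 and 181 CPM in WT (172 ± 12.5, SD, n = 2) and at 264 and 221 CPM in p53R248W/+ (243 ± 30.3). Both mutant libraries were higher, the fitted value was 1.41-fold higher, and the log2 fold change was 0.50 ± 0.19 (SE), with a 95% interval from 0.09 to 0.91. The unadjusted p in the fit across all genes by edgeR was 0.0191 and the adjusted p was 0.824. The unadjusted p was no longer under 0.05 without WT replicate 1 or without p53R248W/+ replicate 1, and the log2 fold change ranged from 0.36 to 0.62 over the fits that left out 1 library.

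The other KDM5 genes did not share this separation to the same size. Kdm5a, which also binds the retinoblastoma protein, had WT values of 443 and 444 CPM beside mutant values of 574 and 447 CPM. The log2 fold change was 0.21 ± 0.16 (SE), and 0.012 when p53R248W/+ replicate 1 was left out. Kdm5a shares 271 exon bases with Ccdc77 on the opposite strand. Kdm5c, an X-linked gene that escapes X inactivation, stood at 179 and 197 CPM for WT, compared with 163 and 178 CPM for p53R248W/+, or -0.14 ± 0.20 (SE). Its mutant libraries were both below WT, by under 1 CPM in the case of p53R248W/+ replicate 2.

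The pair of H3K27 demethylase genes had fold changes of opposite sign. Kdm6a, the X-linked gene for UTX, which works inside the Kmt2c and Kmt2d complexes (chromosome X, 18162667 to 18279358), was at 292 and 291 CPM in WT (291 ± 0.651, SD, n = 2) and at 374 and 362 CPM in p53R248W/+ (368 ± 8.53). Its replicates were the closest to each other among the members with separated genotypes and a log2 fold change above 0.3. The log2 fold change was 0.34 ± 0.16 (SE; unadjusted p = 0.0552 and adjusted p = 0.824, edgeR quasi-likelihood test), and it kept to 0.31 to 0.36 with each library left out. Xist, the RNA of the inactive X chromosome, was high in all 4 libraries, at 14859 to 16191 CPM. Kdm6b, which encodes the stress- and inflammation-induced enzyme JMJD3, measured 118 and 87.8 CPM in the WT libraries versus 81.4 and 94.2 CPM in the mutant libraries, with WT replicate 1 the high library. Its log2 fold change was -0.24 ± 0.26 (SE), and -0.0033 without WT replicate 1. The summed level of 18 immediate early genes was 9190 and 5629 CPM for WT, compared with 4359 and 5033 CPM for p53R248W/+, and all 18 had negative fold changes. WT replicate 1 was the highest and p53R248W/+ replicate 1 the lowest library for both. The part of these genes in the Kdm6b value was not tested.

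Genes of the H3K9 and H3K36 demethylases of the KDM3 and KDM4 families summed to 126 and 135 CPM per kilobase in WT and 148 and 147 in p53R248W/+. Kdm4c had WT values of 93.4 and 101 CPM beside mutant values of 135 and 122 CPM, both mutant libraries being higher (0.40 ± 0.23, SE; adjusted p = 0.835, edgeR quasi-likelihood test). Kdm3b, an H3K9 demethylase in a region of human chromosome 5q that is deleted in myeloid disease, stood at 333 and 351 CPM for WT, compared with 380 and 421 CPM for p53R248W/+, or 0.23 ± 0.16 (SE). Kdm3a overlapped, with WT values of 222 and 260 CPM beside mutant values of 247 and 251 CPM. Kdm4a and Kdm4b overlapped as well, at 32.5 to 47.6 CPM and 10.7 to 22.6 CPM. Kdm4d had 22 and 1 reads in WT and 16 and 0 in p53R248W/+, where 0 reads allow up to 0.248 CPM, counting error only, so no fold is given.

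The remaining demethylases showed small differences. Kdm2a, an H3K36 demethylase that binds unmethylated CpG islands, had the narrowest range of the 44, with WT values of 433 and 422 CPM beside mutant values of 438 and 440 CPM. Its separation of the genotypes amounted to 0.039 ± 0.15 (SE) on the log2 scale, with a 95% interval from -0.28 to 0.36. Kdm2b, which links CpG islands to Polycomb, measured 92.8 and 82.7 CPM in the WT libraries versus 75.4 and 83.3 CPM in the mutant libraries. Kdm7a had WT values of 118 and 107 CPM beside mutant values of 132 and 137 CPM (0.26 ± 0.23, SE), and shares 287 exon bases with 4930599N23Rik. Kdm1a, the LSD1 demethylase recruited by Gfi1 and Gfi1b in blood cells, stood at 162 and 106 CPM for WT, compared with 124 and 147 CPM for p53R248W/+, with both mutant libraries between those of WT. Kdm1b was lower, with WT values of 20.1 and 20.7 CPM beside mutant values of 24.1 and 28.0 CPM, and shares 513 exon bases with Dek. Kdm8 had 29 to 53 reads per library.

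**Figure D4:**
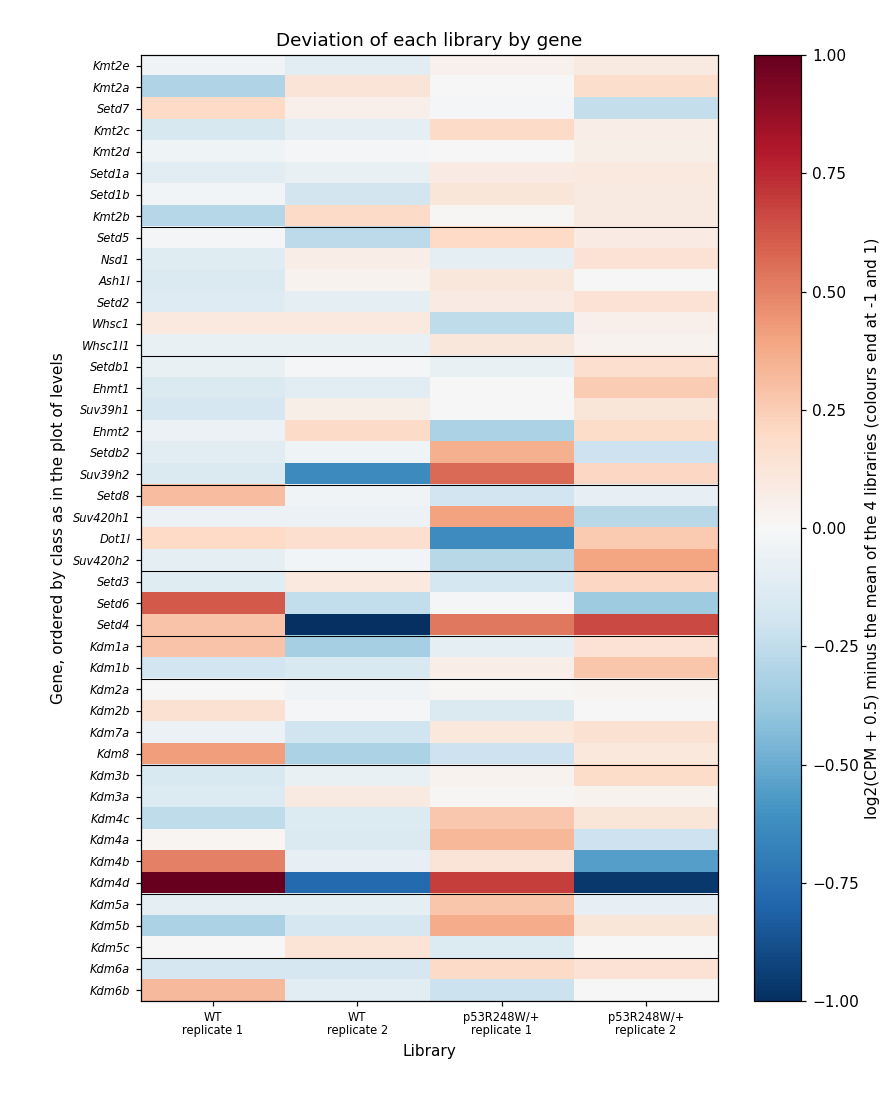
Each cell gives log2(CPM + 0.5) of a library (columns) minus the mean of the 4 libraries for that gene (rows), red for higher and blue for lower. Kdm5b, Kdm6a and Suv39h2 are blue in both WT columns and red in both p53R248W/+ columns, Dot1l is blue in p53R248W/+ replicate 1 alone, and the strongest colours belong to the low-count genes Setd4 and Kdm4d.

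Ratios within a library do not depend on library scaling, so paralogs were also set against each other as ratios of CPM per kilobase. The Kdm5b to Kdm5c ratio was 1.60 and 1.61 in WT and 2.84 and 2.17 in p53R248W/+. Kdm5b accordingly made up 31.4% and 33.0% of the Kdm5a, Kdm5b and Kdm5c level in WT and 38.5% and 38.2% in p53R248W/+. The Kdm6a to Kdm6b ratio was 3.11 and 4.18 in WT and 5.79 and 4.85 in p53R248W/+. The Suv39h1 to Suv39h2 ratio was 1.96 and 3.27 in WT and 1.34 and 1.88 in p53R248W/+, and Whsc1l1 to Whsc1 was 0.733 and 0.736 in WT and 1.07 and 0.820 in p53R248W/+. The WT values of the Kdm5 and NSD ratios were nearly equal while the mutant values spread.

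The make-up of the Kmt2 family overlapped between the genotypes for its most abundant members. Kmt2a was 26.6% and 32.6% of the Kmt2a to Kmt2e level in WT and 28.6% and 31.2% in p53R248W/+, and Kmt2e 40.0% and 34.7% against 37.0% and 36.7%. The ratio of all methyltransferases to all demethylases was 2.01 and 2.10 in WT and 1.91 and 1.99 in p53R248W/+, slightly lower in both mutant libraries. Of 20 such ratios and shares, the genotypes did not overlap in 11, where 33.6% of single genes tested lay apart. Several share genes or hold a gene that lay apart on its own, such as Kdm5b, so the 11 are not independent results. The exact two-sided permutation test gave p = 0.333 for each of those 11, which is the smallest that 2 against 2 libraries allow, and 0.606 after Benjamini-Hochberg adjustment over the 20.

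**Figure D5:**
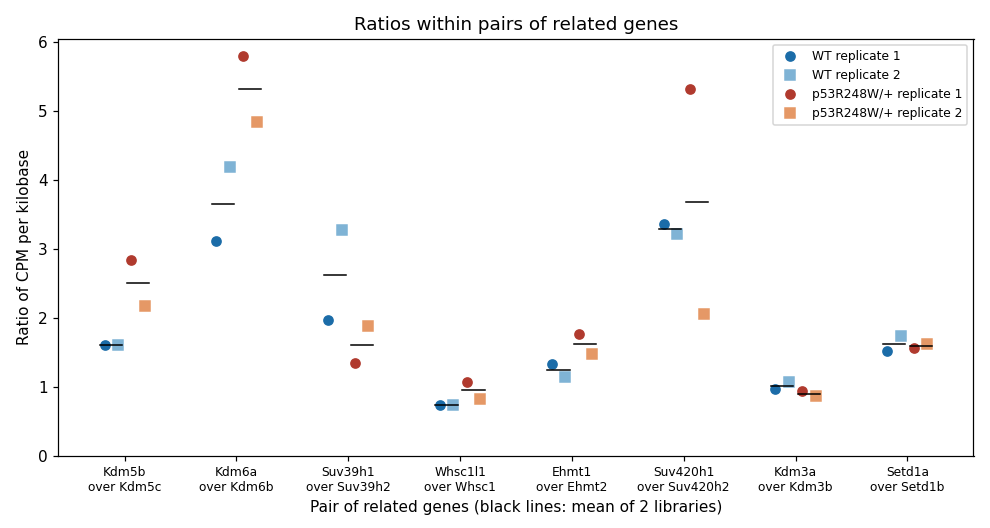
Ratios of CPM per kilobase (y axis) are plotted for 8 pairs of related genes, 1 point per library, with black lines at the mean of 2 libraries. The WT and p53R248W/+ points are apart for Kdm5b over Kdm5c (1.60 and 1.61 against 2.84 and 2.17) and mixed for Setd1a over Setd1b.

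The partners of these enzymes were followed in 4 lists. In none of them did a gene pass after adjustment. Of the 14 non-catalytic subunits of the Kmt2 and Setd1 complexes, 8 had positive and 6 negative fold changes, with a median of 0.10, and 2 were at an unadjusted p under 0.05, both lower. Those were Cxxc1, which guides the Setd1 complexes to CpG islands, and the Hcf-family gene Hcfc2. Cxxc1 measured 183 and 78.6 CPM in the WT libraries versus 41.5 and 75.9 CPM in the mutant libraries, with WT replicate 1 far above the other 3. Hcfc2 had WT values of 45.6 and 57.4 CPM beside mutant values of 19.8 and 35.3 CPM.

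No gene of the other partner lists had an unadjusted p under 0.05. The 12 genes of the Dot1l and super elongation complexes had 5 positive and 7 negative values (median -0.06). The 13 genes of the CoREST complex of Kdm1a had 9 and 4 (median 0.08), and the 11 HP1 and H3K9 partner genes had 6 and 5 (median 0.02). Among 16 tested SET- or JmjC-domain genes outside the symbol rule, 5 were positive and 11 negative (median -0.10). Ezh2, the H3K27 methyltransferase of Polycomb complex 2, stood at 124 and 128 CPM for WT, compared with 67.6 and 110 CPM for p53R248W/+. Its log2 fold change was -0.53 ± 0.26 (SE, adjusted p = 0.824 in edgeR's quasi-likelihood test), with p53R248W/+ replicate 1 the lowest library. That library was also the lowest for the summed proliferation genes, but the order of the other libraries differed. The part of the proliferation genes in the Ezh2 value was not tested.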

How the data were processed

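RNA was measured in 4 LSK libraries, 2 per genotype. The authors deposited raw read counts per gene with exon coordinates and length. Per the submitters' processing notes, the tools named were edgeR 3.40.2, Subread 2.0.3 (featureCounts), STAR 2.7.10a and FastQC 0.11.5, and the build was mm10. Strand and multi-mapping settings are not given in the sources used here.

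Columns were matched to samples by genotype and number. Genes were filtered with filterByExpr (minimum count 10, minimum total 15), which left 13296, scaled by TMM and compared with edgeR 4.0.16 (glmQLFit with robust=TRUE and the current method, glmQLFTest) in R 4.3.3, with Benjamini-Hochberg adjustment over all 13296. The test was checked on simulated counts with planted changes larger than any fitted for the members. That check does not show how often changes of the members' size would be found. Ratios were tested with scipy 1.17.1. The members and lists were chosen with earlier results of these data known.

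Members are named where the unadjusted p was under 0.05, where the level per kilobase was in the top 2 of a class, or where the mean was at least 5 CPM with no overlap between genotypes. Suv39h1 and Dot1l, and other members given as levels only, were added after their values were seen. The floor of 3 reads was 0.202 to 0.248 CPM, for counting error only. Alternatives were other scalings, DESeq2 1.42.0, limma-voom (limma 3.58.1), other filters, a replicate block, each library left out and, added after seeing the data, the legacy quasi-likelihood method. Replicate numbers were not taken to pair the libraries, as no label ties them. A marker of the B lineage list is not reported here and was left out of its sum.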

Additional observations from a re-analysis of the deposited data

How the results depend on the processing

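Of the 44 genes, 0 passed under each alternative run: median-ratio or total-count scaling, DESeq2, limma-voom, no filter, a stricter filter (41 members tested), the replicate block, the legacy method and each library left out. Every sign was kept in the alternatives that used all 4 libraries. DESeq2 called 6 genes of the whole table, and leaving out libraries gave 0 to 1. Members at an unadjusted p under 0.05 numbered 3 with limma-voom (4.65% of all genes) and 0 to 2 with libraries left out (2.39% to 7.73% of all genes). The members' median log2 fold change ran from 0.089 to 0.16 there. With the replicate number as a block 0 genes passed, 1 member had an unadjusted p under 0.05 and the members' median was 0.12. Deviations of same-numbered libraries correlated at 0.0049 across all genes tested and at 0.441 across the 44 members. Kdm4d, which has few reads, had the largest replicate differences of the 44 in both genotypes, at log2 values of 1.84 and 1.66. The correlation without Kdm4d was not computed. With 2 replicate numbers and no shared batch named in the labels, no pairing was assumed, and the block changed no call.

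With libraries left out, log2 fold changes that turned sign ran from -0.82 to 0.076 for Dot1l, -0.26 to 0.36 for Kdm1a, -0.062 to 0.17 for Kdm3a, -0.036 to 0.40 for Kmt2a, -0.073 to 0.16 for Nsd1, -0.17 to 0.22 for Setd3, -0.78 to 0.084 for Setd6, -0.033 to 0.21 for Setdb1, -0.0054 to 0.23 for Suv39h1 and -0.22 to 0.46 for Suv420h1. Setdb2, Ehmt2, Kdm4a, Suv420h2, Kmt2b, Kdm8 and Kdm4d also turned sign. The cause was not tested. A lone library of a genotype is assumed there to vary like the others. Depth limits Kdm4d, Kdm8 and Setd4.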

Other observations

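The supply of cofactors and a set of classical Kmt2a target genes were followed as lists. Of 11 genes for S-adenosylmethionine and 2-oxoglutarate supply, 4 had positive and 7 negative log2 fold changes (median -0.04). Mat2a, which makes S-adenosylmethionine, had WT values of 682 and 708 CPM beside mutant values of 684 and 711 CPM, overlapping between the genotypes. Idh2, a mitochondrial source of 2-oxoglutarate, stood at 81.9 and 57.9 CPM for WT, compared with 36.2 and 45.2 CPM for p53R248W/+, both mutant libraries being lower (log2 fold change -0.79 ± 0.33, SE; adjusted p = 0.824, edgeR quasi-likelihood test).

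Of 11 tested Kmt2a target genes, 6 were positive and 5 negative (median 0.07). Hoxa9 measured 22.7 and 30.7 CPM in the WT libraries versus 25.1 and 40.7 CPM in the mutant libraries, and its co-factor gene Meis1 had 354 and 345 CPM beside 320.0 and 318 CPM, a little lower in both mutant libraries. Eya1 had WT values of 104 and 106 CPM beside mutant values of 158 and 135 CPM, and the cell cycle inhibitor gene Cdkn2c had 15.3 and 19.9 CPM beside 8.36 and 5.20 CPM. Both had an unadjusted p under 0.05, and in edgeR's quasi-likelihood test none of the list passed after adjustment.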
